A study of Mus musculus with 2 samples.

Results

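Neuropeptide signalling was examined in type 5 retinal bipolar cells through 56 genes: 17 neuropeptide precursors, 3 granins and 36 G protein-coupled receptors for neuropeptides. Members were taken by gene symbol, and all 56 were found among the 32813 symbols of the deposited table. Type 5 cells are cone bipolar cells, interneurons that carry signals from photoreceptors to the inner retina. They were sorted by fluorescence from dissociated retinas of the mouse line Htr3a-GFP, whose reporter marks cells with an active promoter of Htr3a, a serotonin receptor subunit gene. The series holds this 1 group as 2 libraries, called replicate 1 and replicate 2, and no other genotype, treatment or cell population. With no other population to compare, a level below is a level in sorted cells and no enrichment over retina. The sources used here do not give the age or sex of the animals or say whether retinas were pooled.

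Neuropeptides are cut from larger precursor proteins, stored in dense-core vesicles with granins, and act on G protein-coupled receptors of nearby cells. In the retina most neuropeptides are made by amacrine cells, the inhibitory interneurons onto which and from which bipolar cell terminals make synapses. A receptor coupled to Gs raises cyclic AMP in the cell, one coupled to Gi lowers it, and one coupled to Gq raises calcium through phospholipase C.

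The table is in TPM, a transcript abundance unit that corrects for transcript length, so levels of different genes can be set side by side. How deeply each library was sequenced is unknown, because TPM does not retain depth, and counting error therefore cannot be stated. Each gene was tested against a line of 1 TPM and one of 10 TPM with limma on log2(TPM + 1), one-sided, over the 19968 genes above 0 in either library. A gene is called above a line where the Benjamini-Hochberg adjusted p is under 0.05. The fit took each variance from the trend over abundance, which means that a gene with widely differing libraries could still be called. An entry of 0 is given as listed and is no measure of absence, since 20.4% of genes whose mean lay at 1 to 10 TPM read 0 in 1 library. Both libraries are biological replicates according to the design text.

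The sorted cells carried 1 abundant neuropeptide receptor transcript and the 3 granin transcripts, and few other members. Above 1 TPM were 6 of 56 members, or 10.7%, against 33.8% of all symbols, 44.8% of protein-coding symbols and 55.5% of the 19968 genes tested. They were the receptor genes Vipr2 and Adcyap1r1, the granin genes Chgb, Scg2 and Chga, and the bombesin-family precursor gene Nmb. Above 10 TPM were 4 of 56, or 7.14%, namely Vipr2 and the granins, against 19.7% of all symbols, 27.6% of protein-coding symbols and 32.4% of the genes tested. Listed at 0 in both libraries were 27 members, or 48.2%, against 39.1% of all symbols and 27.1% of protein-coding symbols. Without a test, 7 members had at least 1 TPM in both libraries, as did 41.1% of all symbols. The median member had a mean log2(TPM + 1) of 0.06, against 0.75 over all symbols and 2.07 over protein-coding symbols.

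**Figure D1:**
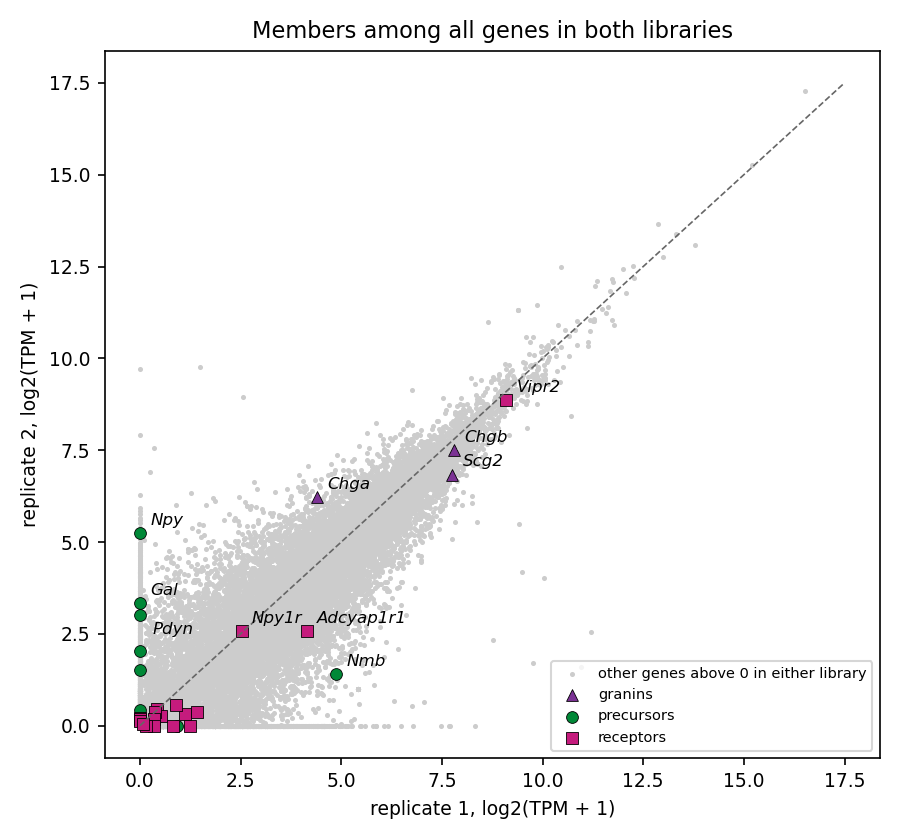
Each point is 1 gene above 0 in either library, with log2(TPM + 1) in replicate 1 on the horizontal axis and in replicate 2 on the vertical axis; the dashed line marks equal values, grey points are other genes and coloured symbols are granins, precursors and receptors. Vipr2, at 544 TPM in replicate 1 and 465 in replicate 2, lies near the line and above every other member, while Npy, Gal and Pdyn lie on the vertical axis because replicate 1 lists them at 0.

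Vipr2 encodes VPAC2, a Gs-coupled receptor for both vasoactive intestinal peptide (VIP) and pituitary adenylate cyclase-activating polypeptide (PACAP). It had 544 TPM in replicate 1 and 465 TPM in replicate 2, a mean of 505 ± 56.3 TPM (SD, n = 2), and ranked 195 of 32813 symbols by mean TPM. The libraries differed by 1.17-fold, and of the 1584 genes averaging 100 to 1000 TPM 90.8% lay within 1 log2 unit between libraries. Vipr2 made up 94.9% of the summed TPM of the 36 receptor members in replicate 1 and 97.4% in replicate 2. Its TPM was 5.99 times that of Htr3a, the gene of the sort, in replicate 1 and 5.23 times in replicate 2. Against Grm6, the glutamate receptor gene of ON bipolar cells, the ratio was 1.01 in replicate 1 and 0.509 in replicate 2. Vipr2 stood at a level like that of Grm6 in replicate 1 and below it in replicate 2, and above Htr3a in both.

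GENCODE M21, on the mm10 assembly (GRCm38), places Vipr2 on the plus strand of chromosome 12, from 116077726 to 116146261. The antisense gene Gm20658 lies inside it, from 116102769 to 116138648 on the minus strand. Gm20658 had 223 TPM in replicate 1 and 86.1 TPM in replicate 2 and was itself above 10 TPM. Vipr2 was 2.44 times Gm20658 in replicate 1 and 5.40 times in replicate 2. The 4463 annotated exonic bases of Vipr2 and the 2768 of Gm20658 share 0 positions, so all exons of the antisense gene sit in introns of Vipr2. The sources used here do not say whether strand was used in counting, and without it reads from Vipr2 introns and from Gm20658 cannot be told apart.

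**Figure D2:**
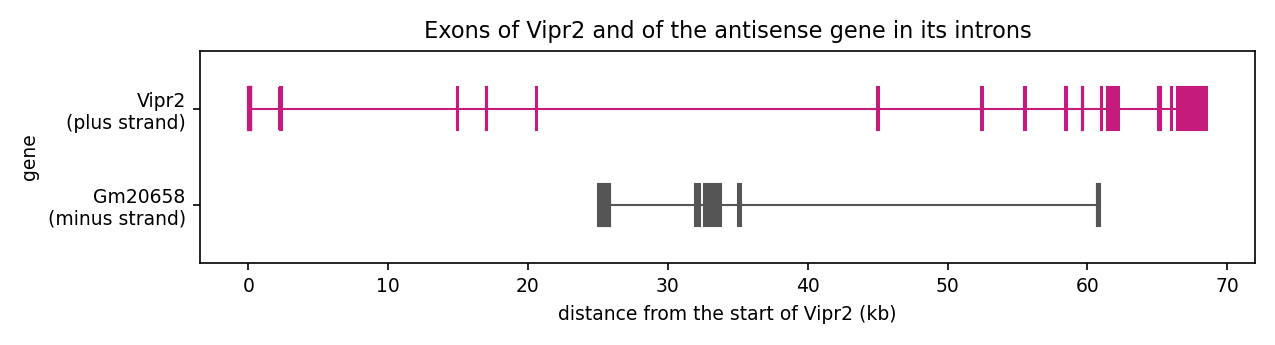
Boxes are annotated exons of all transcripts of Vipr2 (upper row) and of Gm20658 (lower row), and the horizontal axis is the distance in kb from the start of Vipr2. No box of the lower row stands over a box of the upper row, and the shared exonic positions number 0.

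The other receptors for the same peptides were far lower. Adcyap1r1 encodes PAC1, the receptor selective for PACAP. It had 16.7 TPM in replicate 1 and 4.93 TPM in replicate 2, a mean of 10.8 ± 8.30 TPM (SD, n = 2), and was above 1 TPM (limma, adjusted p = 0.0026) but not called above 10 TPM. Vipr2 exceeded it 32.7-fold in replicate 1 and 94.3-fold in replicate 2. Vipr1, the paralog of Vipr2 that encodes VPAC1, had 1.35 TPM in replicate 1 but read 0 in replicate 2, and the ratio of Vipr2 to Vipr1 in replicate 1 was 403. The order Vipr2, Adcyap1r1, Vipr1 held in both libraries. The precursor genes of their ligands, Vip and Adcyap1, were listed at 0 in both libraries.

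Of the 9 receptors coupled mainly to Gs, 2, or 22.2%, were above 1 TPM, Vipr2 and Adcyap1r1, against 44.8% of protein-coding symbols. Calcrl, which forms receptors for the calcitonin gene-related peptide and adrenomedullin, read 0 in replicate 1 and 0.15 TPM in replicate 2. Crhr1 and Crhr2, the receptors for corticotropin-releasing hormone, were listed at 0 in both libraries, as were Mc4r, Calcr and Glp1r, which encode a melanocortin receptor, the calcitonin receptor and the receptor of glucagon-like peptide. Calcrl is abundant in endothelial cells, and of 7 endothelial markers Vwf was called above 1 TPM. The summed level of these markers was 87.5 TPM in replicate 1 and 44.7 TPM in replicate 2, of which Vwf made up 83.1 and 42.2 TPM. Pecam1 had 1.8 and 1.2 TPM, Tek 2.23 and 0.25 TPM and Kdr 0.40 and 1.02 TPM in replicate 1 and replicate 2, while Cldn5, Cdh5 and Emcn were listed at 0 in both libraries. The part of endothelial RNA in the Calcrl value was not tested.

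Of the 13 receptors coupled mainly to Gi, 0 were above 1 TPM by limma after adjustment and 0 at an unadjusted p under 0.05. After adjustment 44.8% of protein-coding symbols were above that line. The highest was Npy1r, the Y1 receptor of neuropeptide Y, with 4.75 TPM in replicate 1 and 4.96 TPM in replicate 2. Its libraries matched closely, but its adjusted p was 0.0913 (limma), and 4 of 7 limma settings called it. The other receptors of neuropeptide Y in the set, Npy2r and Npy5r, were listed at 0 in both libraries. Npy1r stood 0.05 log2 units higher in replicate 2 than in replicate 1 and ranked 12214 of all symbols.

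Opioid and somatostatin receptors were low or at 0. Oprd1, the delta opioid receptor gene, had 0.86 TPM in replicate 1 and 0.48 TPM in replicate 2, and Oprm1, the mu receptor gene, had 0.29 TPM in each. Oprm1 shares 96 of its 8037 exonic bases with Ipcef1 on the other strand, at 10.6 TPM in replicate 1 and 1.65 TPM in replicate 2, so its reads may be mixed with those of Ipcef1. Oprl1, the nociceptin receptor gene, had 0.78 TPM in replicate 1 but read 0 in replicate 2, and Oprk1, the kappa receptor gene, was listed at 0 in both. In both libraries Oprd1 was above Oprl1 and Oprm1, and Oprm1 was above Oprk1. Oprl1 was above Oprm1 and Oprk1 in replicate 1 only, and its range over the libraries overlapped those of the other opioid receptor genes. Sstr2 had 0.43 TPM in replicate 1 and 0.21 TPM in replicate 2, Sstr3 had 0.11 TPM in replicate 1 but read 0 in replicate 2, and Sstr1, Sstr4 and Sstr5 were listed at 0 in both libraries. Galr1, a galanin receptor gene, was listed at 0 in both as well.

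Of the 14 receptors coupled mainly to Gq, 0 were above 1 TPM by limma after adjustment, against 44.8% of protein-coding symbols. At an unadjusted p under 0.05 the count was 0, and under the other limma settings it was 0. Tacr1, the receptor preferred by substance P, had 1.68 TPM in replicate 1 and 0.30 TPM in replicate 2. Tacr3, the receptor preferred by neurokinin B and a marker of some OFF bipolar types, had 1.18 TPM in replicate 1 and 0.24 TPM in replicate 2. Tacr1 and Tacr3 were thus over 1 TPM in replicate 1 and under it in replicate 2, by 5.6-fold for Tacr1 and 4.92-fold for Tacr3. Tacr2 read 0 in replicate 1 and 0.10 TPM in replicate 2.

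The remaining Gq-coupled receptors all lay under 0.5 TPM in each library. Nmbr, the neuromedin B receptor gene, had 0.35 TPM in replicate 1 and 0.36 TPM in replicate 2. Oxtr, the oxytocin receptor gene, had 0.28 TPM in replicate 1 and 0.13 TPM in replicate 2, and Grpr, the receptor gene of gastrin-releasing peptide, had 0.05 and 0.03 TPM. Hcrtr2, an orexin receptor gene, had 0.27 TPM in replicate 1 but read 0 in replicate 2, whereas Cckar, a cholecystokinin receptor gene, read 0 in replicate 1 and 0.13 TPM in replicate 2. Cckbr, Galr2, Ntsr1, Ntsr2, Hcrtr1 and Avpr1a, receptors for cholecystokinin, galanin, neurotensin, orexin and vasopressin, were listed at 0 in both libraries.

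**Figure D3:**
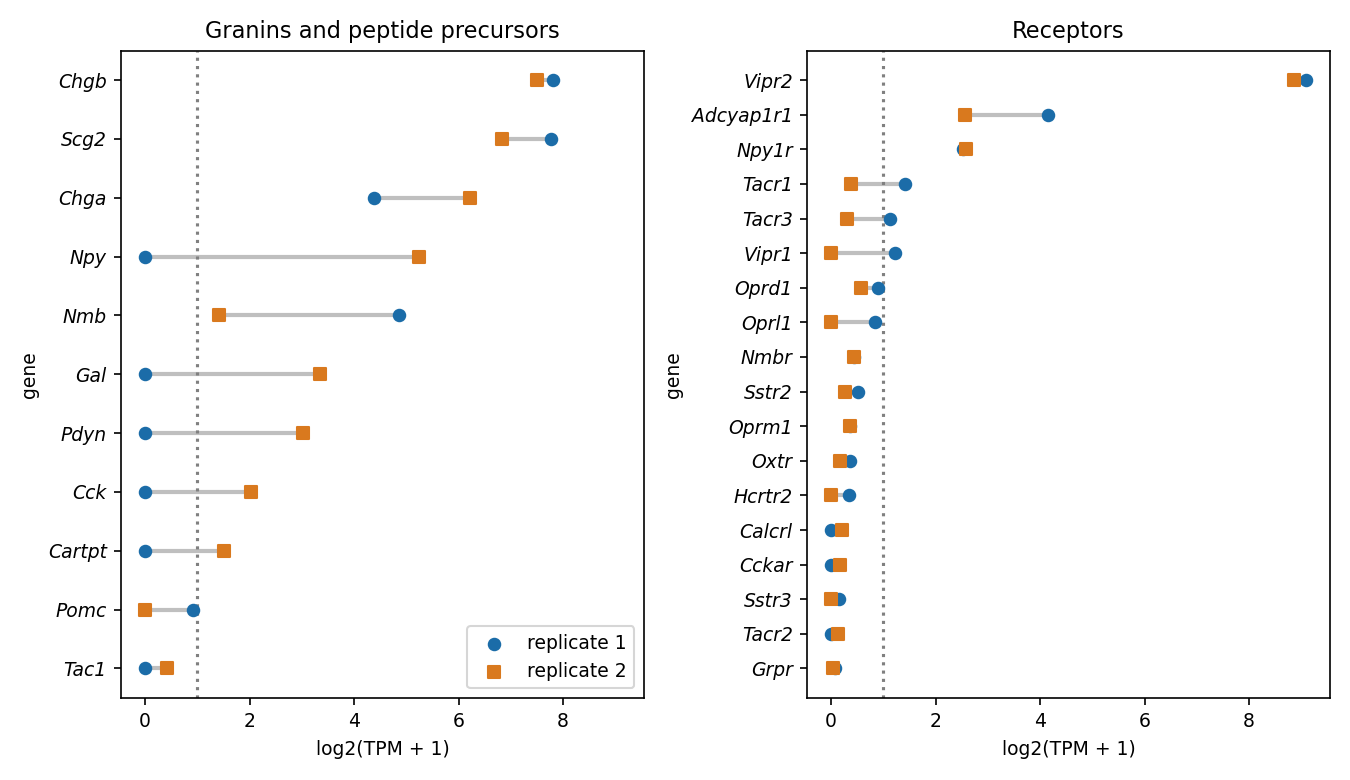
Each row is 1 of the 29 members above 0 in either library, ordered by mean TPM, with log2(TPM + 1) on the horizontal axis, blue circles for replicate 1, orange squares for replicate 2 and a dotted line at 1 TPM. In both libraries Chgb, Scg2, Chga and Vipr2 lie far right of the line, while the remaining receptors apart from Adcyap1r1 and Npy1r lie near or under it.

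All 3 granins, acidic proteins that condense peptide cargo in dense-core vesicles and are themselves cut into peptides, were above 10 TPM. Chgb, which encodes chromogranin B, had 222 TPM in replicate 1 and 179 TPM in replicate 2, a mean of 201 ± 30.1 TPM (SD, n = 2). Scg2, which encodes secretogranin II, had 216 TPM in replicate 1 and 113 TPM in replicate 2, a mean of 165 ± 72.6 TPM. Chga, which encodes chromogranin A, had 19.9 TPM in replicate 1 and 73.8 TPM in replicate 2, a mean of 46.8 ± 38.1 TPM. Chgb was above Scg2 in both libraries, by 1.03-fold in replicate 1 and 1.58-fold in replicate 2, though their ranges over the libraries overlapped. Chga was the lowest of the 3 in each. Chgb was 11.1 times Chga in replicate 1 and 2.43 times in replicate 2, since Chga was higher in replicate 2 and the other granins were higher in replicate 1. Granins made up 94% of the summed TPM of granins and precursors in replicate 1 and 85.9% in replicate 2.

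Granin promoters are known to carry a cyclic AMP response element, the site of CREB-family factors, so RefSeq promoter windows are shown for the granins and, beside them, for Vipr2. Each window holds 250 bases before and 50 bases after the annotated start on GRCm38.p6, and the windows lie at chr2:132781392-132781691 (plus strand, Chgb), chr1:79439977-79440276 (minus strand, Scg2), chr12:102554691-102554990 (plus strand, Chga) and chr12:116077476-116077775 (plus strand, Vipr2). Capitals mark TGACGTNA, searched on both strands.

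Chgb: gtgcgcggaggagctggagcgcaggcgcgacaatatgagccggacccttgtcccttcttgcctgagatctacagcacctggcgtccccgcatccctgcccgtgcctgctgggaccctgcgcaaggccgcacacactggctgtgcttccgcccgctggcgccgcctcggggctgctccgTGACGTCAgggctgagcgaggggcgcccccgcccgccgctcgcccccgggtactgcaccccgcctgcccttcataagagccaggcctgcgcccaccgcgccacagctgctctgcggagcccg
Scg2: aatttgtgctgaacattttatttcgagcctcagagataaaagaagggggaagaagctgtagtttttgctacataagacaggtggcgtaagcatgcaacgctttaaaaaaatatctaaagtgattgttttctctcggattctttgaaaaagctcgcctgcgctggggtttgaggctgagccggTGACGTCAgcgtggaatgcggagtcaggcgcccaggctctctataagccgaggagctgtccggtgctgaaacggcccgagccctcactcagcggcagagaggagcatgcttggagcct
Chga: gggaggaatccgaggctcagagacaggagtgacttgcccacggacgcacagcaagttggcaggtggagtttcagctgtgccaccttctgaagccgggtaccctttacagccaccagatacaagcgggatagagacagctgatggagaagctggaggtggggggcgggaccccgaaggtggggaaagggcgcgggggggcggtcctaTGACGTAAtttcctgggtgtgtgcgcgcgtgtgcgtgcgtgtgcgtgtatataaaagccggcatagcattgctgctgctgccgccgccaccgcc
Vipr2: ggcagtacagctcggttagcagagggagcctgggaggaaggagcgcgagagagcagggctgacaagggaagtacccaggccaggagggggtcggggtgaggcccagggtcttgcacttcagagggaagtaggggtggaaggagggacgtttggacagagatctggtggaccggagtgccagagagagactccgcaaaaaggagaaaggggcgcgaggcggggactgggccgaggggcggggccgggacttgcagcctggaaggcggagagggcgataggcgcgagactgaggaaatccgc

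TGACGTNA occurs once in the window of each granin, beginning 72 bases before the start in Chgb, 68 in Scg2 and 44 in Chga, and not in that of Vipr2. It occurs in 2.93% of the 32851 mouse promoter windows in the table, and in 7 of the 47 members with a window. The share is counted by window but the members by gene, with a match in any of their 57 windows, so the 2 are not like for like. The other 4 are the precursor genes Cartpt and Sst and the receptor genes Hcrtr2 and Sstr2, and of all 7 only the granins were above 1 TPM. The full palindrome TGACGTCA, a subset of these matches, occurs in 1.79% of all windows and in those of Chgb and Scg2 but not Chga. TAATCC, the core recognised by the homeobox factors OTX2 and CRX of bipolar cells and photoreceptors, occurs on either strand in 7.06% of windows and in 0 of the 47 members' windows, which says only that these letters are not in these windows. A match is a description of sequence and was not tested as a binding site.

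Of the 17 neuropeptide precursors 1, or 5.88%, was above 1 TPM, against 33.8% of all symbols and 44.8% of protein-coding symbols. By limma 0 were above 10 TPM with or without adjustment, against 19.7% and 27.6% with it. Listed at 0 in both libraries were 9, or 52.9%, against 39.1% and 27.1%. These 9 are Vip, Sst, Tac2, Penk, Nts, Crh, Adcyap1, Grp and Trh. Nmb, the precursor gene of neuromedin B, was the 1 called, with 28.2 TPM in replicate 1 and 1.66 TPM in replicate 2 (limma, adjusted p = 0.0106). Its libraries differed 17.0-fold, and Nmb is among the 7.42% of the 8216 genes averaging 10 to 100 TPM that differed by over 2 log2 units. Nmb occupies the minus strand of chromosome 7 from 80902227 to 80905076 and shares 163 of its 793 exonic bases with Sec11a, a signal peptidase gene on the same strand at 54.6 TPM in replicate 1 and 93.3 TPM in replicate 2. Reads over those bases can be split between the genes. Nmb was higher in replicate 1 and Sec11a in replicate 2, and the part of shared reads in either value was not tested.

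Npy, the precursor gene of neuropeptide Y, read 0 in replicate 1 and 36.9 TPM in replicate 2. It was not called above 1 TPM (limma, adjusted p = 0.0764), although 2 of 7 limma settings called it, and of the genes averaging 10 to 100 TPM 1.36% were listed at 0 in 1 library. Gal, the galanin precursor gene, read 0 in replicate 1 and 9.14 TPM in replicate 2, while Pdyn, the dynorphin precursor gene, had 0 and 7.11 TPM. Cck, the cholecystokinin precursor gene, read 0 in replicate 1 and 3.06 TPM in replicate 2, while Cartpt, which encodes the CART peptide, had 0 and 1.85 TPM. Tac1, the precursor gene of substance P, read 0 in replicate 1 and 0.34 TPM in replicate 2. Pomc, the precursor gene of beta-endorphin and melanocortins, had 0.90 TPM in replicate 1 and read 0 in replicate 2.

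Of the 8 precursors above 0 in either library, 6 were listed at 0 in replicate 1 only, 1 in replicate 2 only, and 1, Nmb, was above 0 in both. Of all symbols, 1993 were above 0 in replicate 2 only and 1938 in replicate 1 only. Amacrine cells are the main source of neuropeptides in the retina, and their markers were compared between the libraries. Of 13 amacrine markers, 8 were higher in replicate 2 and 2 in replicate 1, against 8264 and 11680 of all symbols, and the summed level of the markers was 80.2 TPM in replicate 1 and 143 TPM in replicate 2. Pax6, a transcription factor gene, had 22.3 TPM in replicate 1 and 46.5 TPM in replicate 2. In the same order Tfap2b had 0.33 and 20.44 TPM, Gad1 0.06 and 10.43 TPM and Gad2 0.11 and 9.94 TPM. Tfap2a had 0.96 and 3.33 TPM, Slc32a1 0 and 1.53 TPM and Tfap2c 0 and 0.16 TPM. Gad1, Gad2, Slc32a1 and the Tfap2 genes were not called above 1 TPM. The pair higher in replicate 1 were Slc6a9, a glycine transporter gene, with 36.6 TPM in replicate 1 and 3.12 TPM in replicate 2, and Th, the gene of dopamine synthesis, with 13.3 and 2.55 TPM. Of the amacrine markers in this paragraph, all but Pax6 and Slc6a9 were named after their values were seen. Some other marker lists were also mostly higher in replicate 2, with 8 of 9 Muller glia and 6 of 7 rod markers. The same held for 5 of 6 OFF bipolar and 3 of 3 astrocyte markers. Markers higher in replicate 2 and in replicate 1 numbered 4 and 3 for type 5 bipolar and 3 and 2 for ganglion cells. They numbered 2 and 0 for pericytes, 4 and 4 for pan-bipolar, 2 and 2 for microglia, and 1 and 3 for endothelial cells. Calb2, Chat and Slc5a7 were listed at 0 in both libraries. The part of RNA from amacrine or other cells in the precursor values was not tested, and in bulk samples fewer cells of a type and less RNA per cell cannot be told apart.

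**Figure D4:**
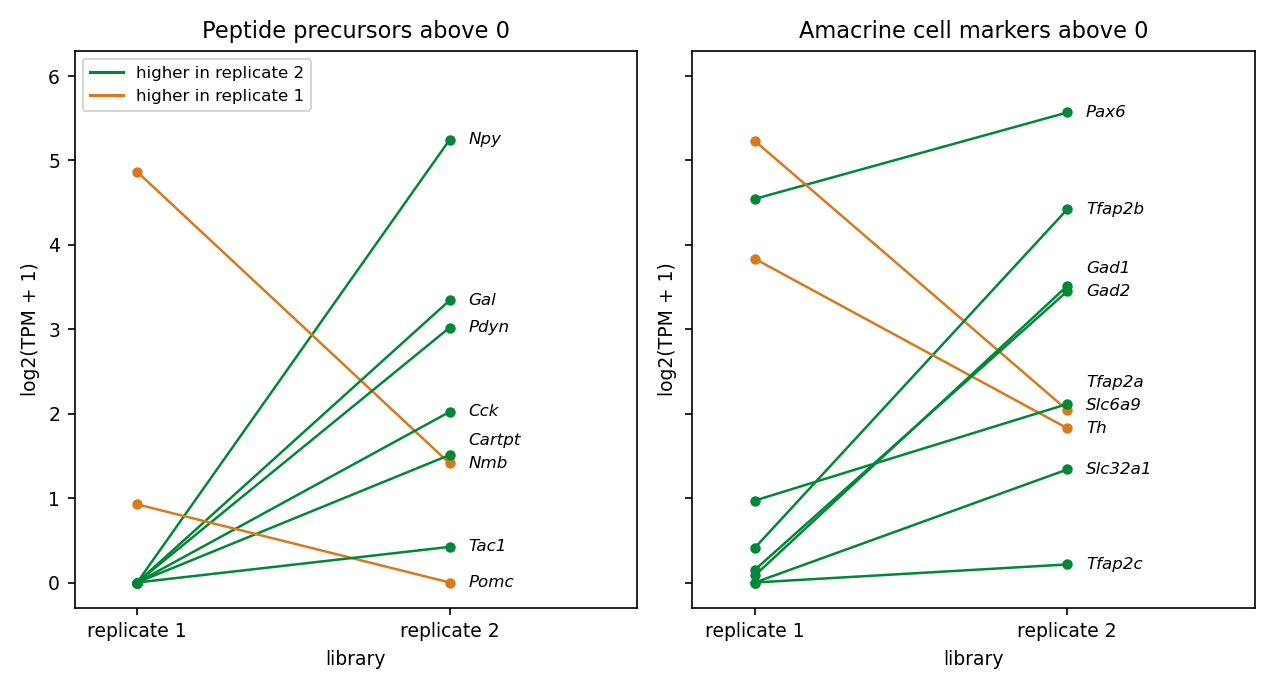
Lines join replicate 1 and replicate 2 of 1 gene on the log2(TPM + 1) scale, for the 8 precursors above 0 in either library (left) and 9 amacrine markers above 0 in either library (right); green lines are higher in replicate 2 and orange lines in replicate 1. Of the precursors 6 and of the amacrine markers plotted 7 are higher in replicate 2, and Npy makes the steepest line at 0 TPM in replicate 1 and 36.9 TPM in replicate 2.

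Set side by side, no peptide family had its precursor and a receptor both called above 1 TPM by the limma fit used here, although 2 of 7 limma settings called both Npy and Npy1r. In the bombesin family Nmb was called and its receptor gene Nmbr lay at 0.35 and 0.36 TPM. In the VIP and PACAP family receptors were called and the precursors were listed at 0. In the neuropeptide Y family neither Npy nor Npy1r was called by that fit. All 3 genes of the neurotensin family and all 3 of the corticotropin-releasing hormone family were listed at 0 in both libraries, as were 4 of the 6 genes of the somatostatin family.

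Other genes of peptide signalling were counted against the same background of 44.8% of protein-coding symbols and 55.5% of genes tested above 1 TPM. Above 10 TPM these shares were 27.6% and 32.4%. Of 15 genes that cut and finish peptides 10, or 66.7%, were above 1 TPM and 7, or 46.7%, above 10 TPM. Their median was 3.99 on the log2(TPM + 1) scale, against 2.07 over protein-coding symbols and 3.22 over the genes tested. Cpe, the carboxypeptidase that trims cut peptides and also a sorting protein, had 1405 TPM in replicate 1 and 1267 TPM in replicate 2. Scg5, the 7B2 chaperone of the convertase PC2, had 259 TPM in replicate 1 and 223 TPM in replicate 2. Pam, which amidates peptide ends, had 101 and 51.8 TPM, and Ctsl, a cathepsin, had 128 and 86.7 TPM in replicate 1 and replicate 2. Pcsk2, which encodes PC2, had 53.6 TPM in replicate 1 and 70.95 TPM in replicate 2, while Pcsk1, which encodes the convertase PC1/3, and Pcsk6 were listed at 0 in both libraries. Pcsk2 was named for its partner Scg5 after its values were seen.

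Of 14 genes of dense-core vesicles 7, or 50%, were above 1 TPM, a share near the background. Above 10 TPM were 6, or 42.9%, and the median was 3.28. Syt4, a synaptotagmin of dense-core vesicles, had 457 TPM in replicate 1 and 482 TPM in replicate 2, and Cadps, the CAPS factor that primes such vesicles, had 344 and 292 TPM. Rab2a, a small GTPase of vesicle maturation, had 289 TPM in replicate 1 and 253 TPM in replicate 2, and the granin relative Scg3 had 184 and 138 TPM. Vgf, a granin-like precursor, was listed at 0 in both libraries, and Cadps2, the paralog of Cadps, had 0.09 and 0.15 TPM.

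Of 12 peptide-degrading enzymes 4, or 33.3%, were above 1 TPM and 2, or 16.7%, above 10 TPM, with a median of 2.44. Ece2 and Ece1, endothelin-converting enzymes that also cut other peptides, had 45.8 ± 10.3 and 17.0 ± 10.5 TPM, Lnpep, an aminopeptidase, 37.0 ± 14.5 TPM and Ace 14.4 ± 3.16 TPM (SD, n = 2). Anpep and Enpep, further aminopeptidases, were listed at 0 in both libraries. Of 12 receptor accessory and desensitization genes 5, or 41.7%, were above 1 TPM and 2, or 16.7%, above 10 TPM, with a median of 2.65. Grk4, a receptor kinase, had 169.75 TPM in replicate 1 and 92.4 TPM in replicate 2, and the arrestins Arrb2 and Arrb1 had 34.9 ± 4.81 and 16.1 ± 5.17 TPM, with Adrbk1, another receptor kinase, at 10.6 ± 0.92 TPM (SD, n = 2). Ramp1, a partner of Calcrl, had 0.18 and 0.09 TPM, and Ramp3 read 0 in replicate 1 and 0.56 TPM in replicate 2. Ramp2 had 3.32 TPM in replicate 1 and 13.53 TPM in replicate 2 and was called above 1 TPM (limma, adjusted p = 0.0224). Ramp2 was named beside Ramp1 and Ramp3 after its values were seen.

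Precursors and receptors outside the 56 were counted in the same way. Of protein-coding symbols 44.8% were above 1 TPM, 27.6% were above 10 TPM and 27.1% were listed at 0 in both libraries. Of 41 other neuropeptide precursors 1, or 2.44%, was above 1 TPM and 0 were above 10 TPM by limma with or without adjustment. Listed at 0 in both libraries were 22, or 53.7%, among them Avp, Hcrt, Calca and Kiss1. The 1 called was Gnrh1, with 5.34 TPM in replicate 1 and 9.96 TPM in replicate 2, followed by Ghrl with 6.15 and 1.34 TPM, Ucn2 with 4.74 and 1.57 TPM and Ghrh with 4.62 and 0.92 TPM. Of 43 other peptide receptors 20, or 46.5%, were listed at 0 in both, and 0 were above 10 TPM by limma with or without adjustment. Above 1 TPM were 2, or 4.65%. They were Prokr2, a prokineticin receptor gene, with 17.75 TPM in replicate 1 and 9.24 TPM in replicate 2, and Ednrb, an endothelin receptor gene, with 8.59 and 6.38 TPM. Pth1r and Gnrhr followed with 4.14 ± 1.24 and 2.29 ± 1.15 TPM (SD, n = 2). Among the 36 receptor members and these 43, Vipr2 ranked 1 and Prokr2 came next, with Vipr2 30.7 times as high in replicate 1 and 50.3 times in replicate 2.

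**Figure D5:**
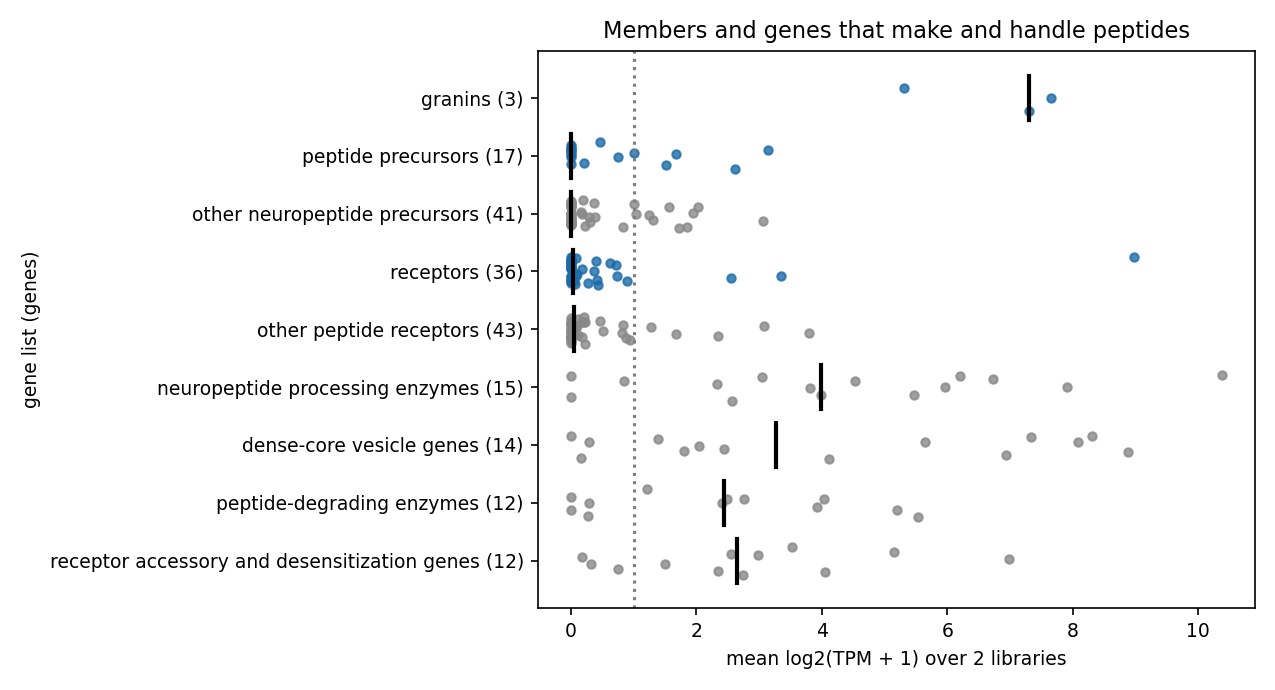
Each point is 1 gene at its mean log2(TPM + 1) over both libraries, with a row for each list, the number of genes in parentheses, black bars at list medians and a dotted line at 1 TPM; blue rows are the members and grey rows other genes of peptide signalling, jittered vertically. Points of the precursor and receptor rows pile up at 0, with Vipr2 alone at the right of the receptor row, while processing enzymes have a median of 3.99 and dense-core vesicle genes one of 3.28.

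The cell type label was checked against marker lists. Above 1 TPM were 8 of 8 pan-bipolar and 5 of 7 type 5 markers, with Chrm2 and Slitrk5 not called. The 5 include Htr3a, the gene of the sort, whose call cannot check the label. Of 6 OFF bipolar markers 0 were above 1 TPM by limma, with 1, Cdh8, at an unadjusted p under 0.05. Markers of other retinal cells were called too, with 7 of 7 rod, 6 of 9 Muller glia and 4 of 13 amacrine genes above 1 TPM. So were 1 of 8 ganglion cell (Thy1) and 1 of 7 endothelial genes (Vwf). The shares for amacrine (30.8%), ganglion cell (12.5%) and endothelial genes (14.3%) lay under the 44.8% of protein-coding symbols and 55.5% of genes tested. The shares for rod (100%) and Muller glia genes (66.7%) lay over both, as did those for pan-bipolar (100%) and type 5 genes (71.4%). The share called does not by itself set type 5 markers apart from rod or Muller glia markers. Of 3 astrocyte, 5 pericyte and 5 microglia genes 0 were above 1 TPM by limma and 0 at an unadjusted p under 0.05. Summed levels in replicate 1 and replicate 2 were 192 and 408 TPM for Muller glia, 0.10 and 10.03 TPM for astrocytes, and 1589 and 1623 TPM for rods. Mitochondrial-genome RNA made up 17.3% of replicate 1 and 24.6% of replicate 2 by TPM, which lowers every other TPM more in replicate 2.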

How the data were processed

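Retinal cells were sorted into RNAlater and total RNA was amplified with a NuGEN Ovation kit, per the labels' protocols. The authors deposited 1 table of TPM, with a column for each of 2 libraries. Per the submitters' processing notes, RSEM 1.2.28, TopHat2 2.0.10 and build mm10 were used, in roles not stated. The sources used here give no annotation release, strand setting or filter. The column of replicate 1 misspells Htr3a and was matched by its replicate number. limma 3.58.1 in R 4.3.3 was fitted to log2(TPM + 1) with an intercept and a variance trend, over genes above 0 in either library, with Benjamini-Hochberg adjustment over all of them. Python 3.11.15 with pandas 2.3.3 and numpy 2.4.6 was used elsewhere.

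The members and lists were chosen with earlier results of these data known. All 56 members are reported. Of each other pathway list up to 4 genes of highest and 2 of lowest mean TPM were named, ties included. Of marker lists up to 3 were eligible, and marker values are given where they bear on a member. Further markers were named outside this rule. Of the amacrine markers 1 is counted in the list but not reported here. The script of the test was first tested on simulated data. There, 16 of 50 genes set at 4 TPM were called above 1 TPM, as were 50 of 50 set at 16 TPM and 0 of 50 set at 0.25 TPM. A gene not called above 1 TPM can therefore lie at a few TPM. The alternatives were a pseudocount of 0.1, a filter at a mean of 0.5 TPM, other variance models, scalings, no test and single libraries.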

Additional observations from a re-analysis of the deposited data

How the results depend on the processing

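The call above 10 TPM of 4 members, Vipr2, Chgb, Scg2 and Chga, was the same under all 6 other limma settings. The 6 members above 1 TPM became 6 to 8 under them, and the additions were Npy1r and Npy. With no test and 1 library at a time, the count of members at or over 1 TPM was 10 to 12 (10 without replicate 2, which leaves Tacr1, Tacr3, Vipr1 and Npy1r beside the 6, and 12 without replicate 1, which leaves Npy, Gal, Pdyn, Cck, Cartpt and Npy1r). Over all genes, the count at or over 10 TPM with no test was 9294 to 9935 in single libraries, against 6475 by limma. A single library gives a count with no test, which needs no adjusted p and so counts more genes. Rescaling TPM without mitochondrial genes shifted the members' mean log2(TPM + 1) up by 0.01 to 0.34. No paired analysis was possible because the series has 1 group. Without depth, the limit that a listed 0 sets on a gene's level is unknown.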
